A study of Mus musculus with 6 samples.

Results

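All 6 libraries of the series entered 1 comparison, in which the 4 libraries of both Ikaros finger mutants were taken as 1 group and set against the 2 libraries of wild type. Each library held messenger RNA of B cells with surface IgM, sorted from bone marrow of C57BL/6 mice aged 6 weeks. The wild-type arm had replicates 1 and 2, and the mutant arm had replicates 1 and 2 of the genotype Ikaros_ZnF1-/- (zinc finger 1 of Ikaros removed, the ZnF1 mutant) and replicates 1 and 2 of Ikaros_ZnF4-/- (finger 4 removed, the ZnF4 mutant). No group received a treatment. Of 22098 gene names, 10322 had a mean of at least 1 RPKM (read density along the transcript, relative to library size) over the 6 libraries and were tested. The comparison asks what the loss of either finger has in common.

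Ikaros is the product of Ikzf1, a lymphocyte transcription factor with zinc fingers that can repress or activate its target genes. Its N-terminal fingers contact DNA and its C-terminal fingers bind other members of the Ikaros family. The middle DNA-binding fingers are essential for contact with the core motif, whereas fingers 1 and 4 at the flanks add contacts at a subset of sites, so each mutant protein can still bind DNA. In B cells, Ikaros acts from the earliest progenitors to the mature stage. It is known for silencing the surrogate light chain genes and for setting the threshold of B cell receptor signals.

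Each genotype is labelled as 2 numbered replicates with no statement that they came from separate animals. The p-values here thus speak only of the spread among these samples, which for wild type may be technical. The 6 B cell markers, Cd79a and Cd79b among them, summed to between 4406 and 5273 RPKM in all 6 libraries, and the T cell receptor chain gene Cd3e lay between 0.2 and 0.7. The 23 granulocyte and monocyte markers in the table did not stay level. They summed to 517 and 820 RPKM in wild type and to 1587, 8616, 1942 and 2149 in ZnF1 replicates 1 and 2 and ZnF4 replicates 1 and 2, with 20 of the 23 above wild type in all 4 mutant libraries and none of them at 0 throughout. Both wild-type libraries were free of the Y-linked Ddx3y, while replicate 2 of both mutants carried it (20.4 and 16.6 RPKM) and had Xist at 0. In replicate 1 of the ZnF1 and ZnF4 mutants, Ddx3y was at 0 and Xist at 40 and 66.8 RPKM. The 2 libraries of each mutant thus were not repeats of 1 RNA sample. The part of these markers and of Y-linked RNA in the results was not tested beyond the values given here. RNA amount per cell and the number of cells of a type cannot be told apart in such bulk samples.

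The promoters of 4 genes are shown. Il9r had the largest positive difference, and Snrnp25 is its neighbour on the opposite strand. Fgd2 is a strongly expressed gene that was higher in every mutant library, and Emid1 had the smallest p-value. Each promoter shown is the run of 250 bases before the RefSeq start of the gene in GRCm38.p6. Capitals mark GGGAA, the core letters known from Ikaros sites, or its reverse complement TTCCC.
Il9r, chr11:32200280-32200529, minus strand: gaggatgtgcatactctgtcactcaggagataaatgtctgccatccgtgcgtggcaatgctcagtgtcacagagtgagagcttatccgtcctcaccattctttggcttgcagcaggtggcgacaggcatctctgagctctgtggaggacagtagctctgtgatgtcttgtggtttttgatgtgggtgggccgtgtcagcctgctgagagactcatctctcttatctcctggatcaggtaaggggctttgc
Snrnp25, chr11:32205165-32205414, plus strand: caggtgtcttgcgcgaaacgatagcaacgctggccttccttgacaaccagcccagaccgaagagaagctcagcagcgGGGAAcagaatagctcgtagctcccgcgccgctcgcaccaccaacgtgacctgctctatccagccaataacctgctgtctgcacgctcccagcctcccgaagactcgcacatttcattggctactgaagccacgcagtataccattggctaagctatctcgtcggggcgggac
Fgd2, chr17:29360664-29360913, plus strand: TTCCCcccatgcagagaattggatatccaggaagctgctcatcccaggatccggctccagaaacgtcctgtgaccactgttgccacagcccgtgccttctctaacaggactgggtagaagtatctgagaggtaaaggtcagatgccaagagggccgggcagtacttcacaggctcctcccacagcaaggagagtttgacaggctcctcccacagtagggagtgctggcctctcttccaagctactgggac
Emid1, chr11:5152231-5152480, minus strand: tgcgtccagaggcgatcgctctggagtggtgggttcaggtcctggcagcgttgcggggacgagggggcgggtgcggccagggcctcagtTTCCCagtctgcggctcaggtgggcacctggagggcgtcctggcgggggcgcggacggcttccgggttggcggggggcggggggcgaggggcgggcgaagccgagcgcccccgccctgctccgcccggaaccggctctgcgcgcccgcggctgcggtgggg
The Il9r window held no match and the other 3 windows held 1 each. On both strands together, GGGAA stood in 58.0% of the 9367 such windows of tested genes. The longer TGGGAA, which contains GGGAA, stood in 20.3% of them.

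With the mutants as 1 group, no gene passed. By limma, 0 of 10322 genes had an adjusted p under 0.05 in either direction (0.0% higher and 0.0% lower), the smallest adjusted p was 0.121, and 746 genes (7.23%) had an unadjusted p under 0.05, 381 higher (3.69%) and 365 lower (3.54%). In this fit a difference between the mutants counts as spread, which leaves 4 residual degrees of freedom. When each genotype had its own coefficient and the mean of the mutants was set against wild type, only the spread within genotypes counted, and limma called 50 genes (0.484%), 28 higher (0.271%) and 22 lower (0.213%), with 1318 at an unadjusted p under 0.05. Those 50 genes are the ones described as called here, with adjusted p from 0.00395 to 0.0438 in that fit by limma. An adjusted p printed beside a pooled log2 fold change is that of the pooled fit. The count depended on single libraries: it was 0 when either wild-type library or either ZnF4 library was left out, 546 without ZnF1 replicate 1 and 112 without replicate 2 of that mutant. It was 10 with a term for the granulocyte and monocyte markers, 4 with a term for Y-linked RNA, and 0 without replicate 2 of both mutants or without the filter on low values. All 50 genes kept their direction in the pooled fit without ZnF1 replicate 2, without replicate 2 of both mutants and with either term. The 50 were chosen for their difference in these same libraries, so a kept direction is no separate support. For 48 of them, all 4 mutant libraries lay on 1 side of both wild-type libraries. Over all tested genes, 8.89% lay above and 8.96% below in this way. Genes called for a large mean difference and a small spread separate more easily, so the 48 are no separate support either. Leaving out mutant libraries could not turn the direction of those 48. The term for Y-linked RNA gives the same fold change as leaving out replicate 2 of both mutants.

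**Figure D1:**
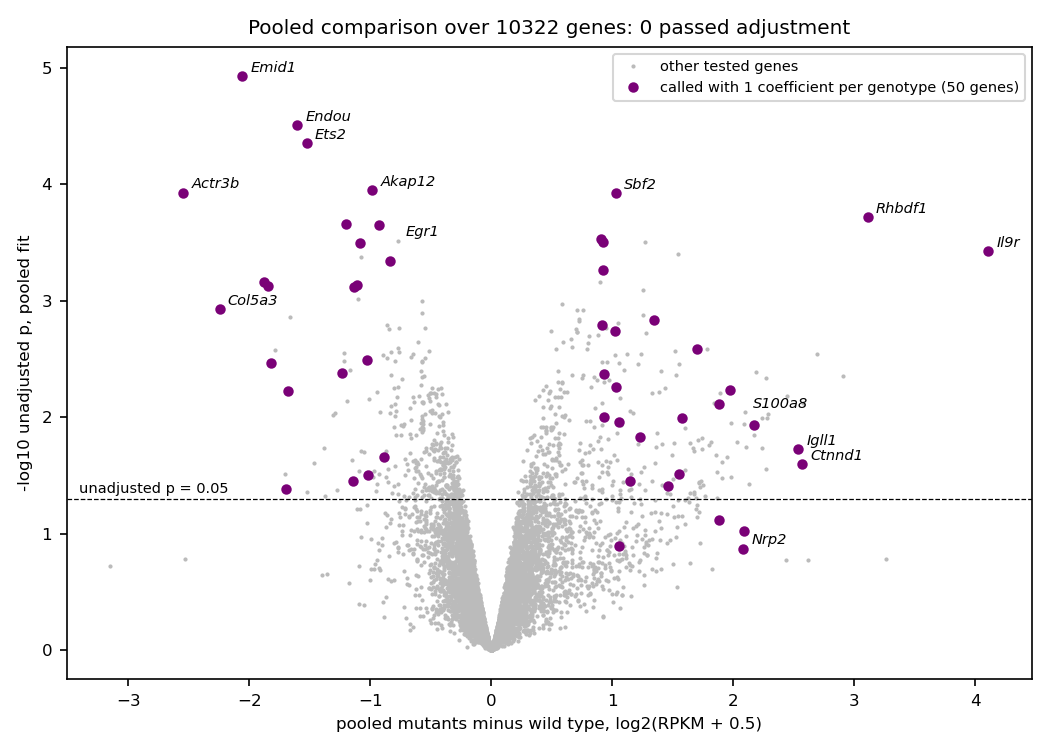
Each point is 1 of the 10322 tested genes, with the pooled mutant minus wild-type difference in log2(RPKM + 0.5) on the x axis and the -log10 of the unadjusted p of the pooled fit on the y axis. The purple points are the 50 genes called with 1 coefficient per genotype; 46 of them lie above the dashed line at an unadjusted p of 0.05, and Nrp2 lies below it.

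Ikzf1 itself was not called. Its level was 176.5 and 178.6 RPKM in wild type, 201.1 and 168.4 in the ZnF1 libraries and 287.3 and 244.0 in the ZnF4 libraries. Its pooled log2 fold change was 0.31 (SE 0.21, adjusted p = 0.772), and 0.72 with a term for granulocyte and monocyte markers. The ZnF4 libraries were the highest, with a difference from wild type of 0.58 (SE 0.16, adjusted p = 0.111 by limma) and a ZnF1 minus ZnF4 difference of -0.52 (interval -0.89 to -0.16). With 1 value per transcript the loss of a finger exon is not visible, and the genotypes are not checked by it.

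Of the 22 lower called genes, 18 were not called in the direct comparison of the mutants, which called 493 of all tested genes (4.78%). With 2 libraries per genotype, a difference that was not called does not show that the mutants were alike. Emid1, which encodes a secreted protein with an EMI domain, was at 33.1 and 42.8 RPKM in wild type, 8.6 and 6.6 in the ZnF1 libraries and 10.5 and 9.3 in the ZnF4 libraries. All 4 mutant libraries lay well under both wild-type libraries, and the pooled log2 fold change was -2.06 (SE 0.20, adjusted p = 0.121). The ZnF1 minus ZnF4 difference of Emid1 was -0.37, with a 95% interval from -0.79 to 0.06. Endou, a gene for an endoribonuclease, was at 15.8 and 15 RPKM in wild type, 6.1 and 4.7 in the ZnF1 libraries and 4.3 and 4.0 in the ZnF4 libraries. Its pooled log2 fold change was -1.61 (SE 0.18, adjusted p = 0.153), and the mutants differed by 0.33 (interval -0.05 to 0.72).

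Ets2, a transcription factor gene of the ETS family, was at 9.6 and 11.7 RPKM in wild type, 3.8 and 3.8 in the ZnF1 libraries and 2.8 and 3.1 in the ZnF4 libraries. The pooled log2 fold change was -1.53 (SE 0.18, adjusted p = 0.153), with no overlap between the arms. Actr3b, which encodes a relative of the actin-nucleating protein Arp3, was at 5.6 and 5.2 RPKM in wild type, 1.0 and 0.6 in the ZnF1 libraries and 0.4 and 0.2 in the ZnF4 libraries. This was the largest difference among the lower called genes, at -2.55 on the log2 scale (SE 0.34, adjusted p = 0.204). Akap12, a scaffold gene for protein kinase A, was more abundant: 87.9 and 96.2 RPKM in wild type, 45.9 and 39.6 in the ZnF1 libraries and 52.0 and 48.3 in the ZnF4 libraries. Its pooled log2 fold change was -0.98 (SE 0.13, adjusted p = 0.204).

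Surface receptor and antigen genes were among the lower ones. Cd24a, the heat-stable antigen of immature B cells, was at 127.2 and 146.7 RPKM in wild type, 70.4 and 77.6 in the ZnF1 libraries and 77.8 and 61.0 in the ZnF4 libraries. Its pooled log2 fold change was -0.93 (SE 0.14, adjusted p = 0.234), and the mutants differed by 0.10 (interval -0.27 to 0.47). Bst1, the gene of the stromal antigen CD157, was at 15.9 and 16.1 RPKM in wild type, 5.9 and 8.8 in the ZnF1 libraries and 6.5 and 5.9 in the ZnF4 libraries. Il2ra, the gene of the CD25 chain, was at 9.9 and 13.1 RPKM in wild type, 5.8 and 3.3 in the ZnF1 libraries and 2.2 and 1.5 in the ZnF4 libraries. The pooled log2 fold change was -1.20 for Bst1 (SE 0.18, adjusted p = 0.234) and -1.82 for Il2ra (SE 0.43, adjusted p = 0.405). For both, every mutant library lay below both wild-type libraries.

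Sdc1, the syndecan of plasma cells, and Bmf, a BH3-only gene that promotes apoptosis, were lower too, more so in the ZnF1 mutant by value. Sdc1 was at 5.3 and 3.3 RPKM in wild type, 0.6 and 0.4 in the ZnF1 libraries and 1.6 and 1.7 in the ZnF4 libraries. Bmf was at 54.4 and 37.3 RPKM in wild type, 16.1 and 12.8 in the ZnF1 libraries and 26.6 and 22.8 in the ZnF4 libraries. The direct comparison of the mutants did not call either gene (adjusted p = 0.0712 and 0.0858 by limma). The pooled log2 fold change of Sdc1 moved from -1.68 to -0.95 with a term for granulocyte and monocyte markers, and that of Bmf from -1.24 to -0.63.

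Further called genes below wild type in every mutant library were Col5a3, a collagen gene (pooled log2 fold change -2.25), Hmgcll1 (-1.85), Lrrc32, which encodes a docking receptor for latent TGF-beta (-1.70), Dtx1, a Notch target gene (-1.15), Myl4, a myosin light chain gene (-1.14), and Sufu, a brake on Hedgehog signalling (-1.11). Smaller differences were those of Chst11, a chondroitin sulfotransferase gene (-1.09), Gh, the growth hormone gene (-1.03), Leprotl1 (-1.02) and Bhlhe40 (-0.88). Col5a3 depended on the wild-type libraries, which stood at 20.7 and 42.8 RPKM, and its fold change was -2.76 when only wild-type replicate 2 was kept and -1.73 when only replicate 1 was. Over the 22 lower genes, the median pooled log2 fold change was -1.22, and it was -1.31 without ZnF1 replicate 2 and -1.24 without replicate 2 of both mutants.

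**Figure D2:**
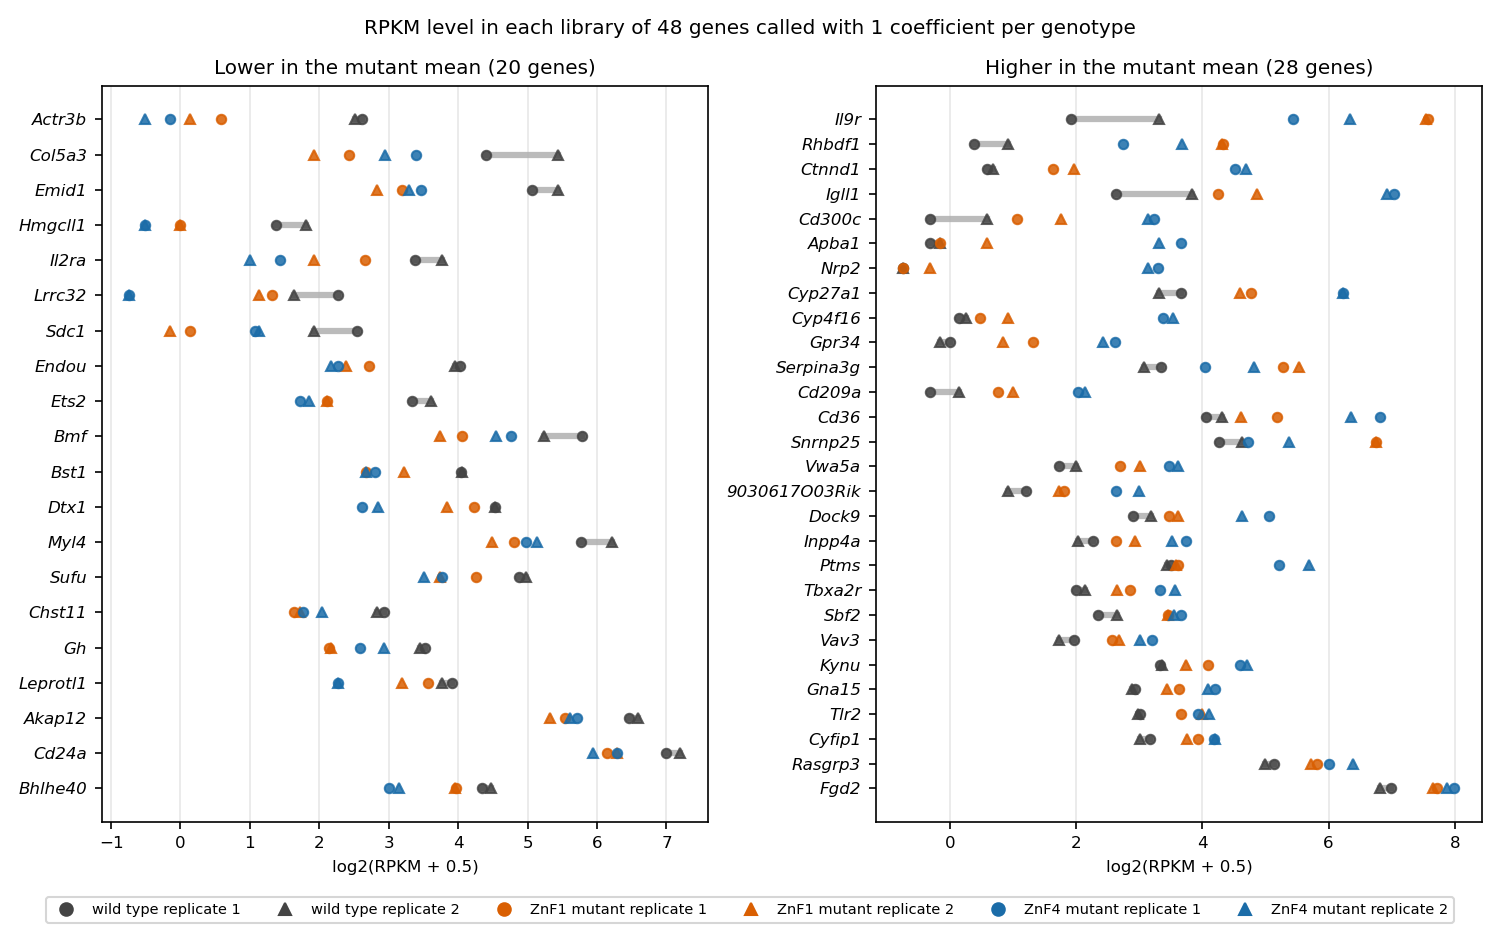
Each row is 1 of 48 of the 50 genes called with 1 coefficient per genotype (20 of the 22 lower on the left, 28 higher on the right), and the x axis is log2(RPKM + 0.5). Points are single libraries, coloured by genotype with a circle for replicate 1 and a triangle for replicate 2, and the grey bar joins the wild-type libraries; no mutant point falls on or past the bar except for Nrp2 and Apba1.

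Among the higher genes, Il9r and Rhbdf1 stood apart by size. Il9r, the receptor gene for interleukin 9, was at 3.3 and 9.4 RPKM in wild type, 190.5 and 184.9 in the ZnF1 libraries and 43.0 and 80.8 in the ZnF4 libraries. Its pooled log2 fold change was 4.11 (SE 0.66, adjusted p = 0.250). It was 3.42 without wild-type replicate 1, the lower of that pair, and 4.80 with that library as the only wild type. Rhbdf1, a gene of the rhomboid family, was at 0.8 and 1.4 RPKM in wild type, 19.5 and 19.4 in the ZnF1 libraries and 6.2 and 12.3 in the ZnF4 libraries (3.11, SE 0.45, adjusted p = 0.234). For both genes the ZnF1 libraries were the highest and the ZnF4 libraries lay between them and wild type. The direct comparison of the mutants missed the threshold for Il9r (1.66, interval 0.62 to 2.70, adjusted p = 0.0835) and for Rhbdf1 (1.11, interval 0.37 to 1.84, adjusted p = 0.1003).

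Snrnp25, a gene of the minor spliceosome, lies between Il9r and Rhbdf1 in the RefSeq gene order. Its level was 18.6 and 24.3 RPKM in wild type, 107.2 and 107.4 in the ZnF1 libraries and 26.0 and 41.1 in the ZnF4 libraries, and here the mutants differed (1.70, adjusted p = 0.00836 by limma). Beyond Rhbdf1, the next neighbours were Mpg, a DNA repair glycosylase gene, with a pooled log2 fold change of 0.53 (adjusted p = 0.689), and Nprl3 with 0.37 (adjusted p = 0.701). On the other side of Il9r, Nsg2 had -0.34 (adjusted p = 0.914). The labels do not say whether counting used strand, so reads of overlapping or facing transcripts cannot be separated.

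Of the 28 higher called genes, 11 were not called in the direct comparison of the mutants, and the other 9 beside Il9r and Rhbdf1 had smaller differences. Over all tested genes, 4.78% were called in that comparison. Fgd2, an exchange factor gene for the small GTPase Cdc42, was at 126.8 and 112.0 RPKM in wild type, 210.2 and 200 in the ZnF1 libraries and 254.2 and 233.7 in the ZnF4 libraries. The pooled log2 fold change was 0.90 (SE 0.14, adjusted p = 0.234), and the mutants differed by -0.25 (interval -0.57 to 0.07). Sbf2, a myotubularin-related gene, was at 4.6 and 5.8 RPKM in wild type, 10.5 and 10.5 in the ZnF1 libraries and 12.2 and 11.2 in the ZnF4 libraries (1.03, SE 0.14, adjusted p = 0.204). Tlr2, a receptor gene for bacterial lipoproteins, was at 7.6 and 7.4 RPKM in wild type, 12.2 and 15.4 in the ZnF1 libraries and 14.8 and 16.8 in the ZnF4 libraries (0.93, SE 0.14, adjusted p = 0.234). Monocytes also express Tlr2, and their markers stood above wild type in those 4 libraries too. The fold change of Tlr2 was 0.91 without ZnF1 replicate 2, the library richest in those markers, and 0.81 with a term for them.

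Rasgrp3, Vav3 and Cyfip1 were higher in all 4 mutant libraries. Of these, only Vav3 belongs to the list of B cell receptor signalling genes, which had a median of -0.13. Rasgrp3, an activator of Ras downstream of the B cell receptor, was at 34.7 and 31.2 RPKM in wild type, 55.9 and 52.2 in the ZnF1 libraries and 63.8 and 82.8 in the ZnF4 libraries (pooled log2 fold change 0.92, SE 0.19, adjusted p = 0.382). Vav3, an exchange factor gene for small GTPases, was at 3.4 and 2.8 RPKM in wild type, 5.4 and 5.9 in the ZnF1 libraries and 8.7 and 7.6 in the ZnF4 libraries (1.02, SE 0.21, adjusted p = 0.382). Cyfip1, a subunit gene of the WAVE complex that steers actin assembly, was at 8.5 and 7.6 RPKM in wild type, 14.8 and 13.0 in the ZnF1 libraries and 17.6 and 17.9 in the ZnF4 libraries (0.92, SE 0.16, adjusted p = 0.279). The arms did not overlap for any of these 3 genes. Further called genes without a called difference between the mutants were Serpina3g (1.70, and 1.08 with the term for granulocyte and monocyte markers), Vwa5a (1.34) and Tbxa2r, the thromboxane receptor gene (1.03). Serpina3g belongs to a cluster of near-identical genes, so its values are uncertain.

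The mean of the mutants did not always stand for both. Of the 50 called genes, 21 were also called in the direct comparison of the ZnF1 with the ZnF4 mutant, against 4.78% of all tested genes. Both calls use the same spread within genotypes, so a gene with a small spread passes both more easily. The difference from wild type was larger in the ZnF4 mutant for 20 of the 21 and larger in the ZnF1 mutant for 1, Snrnp25. Over all tested genes, limma called 330 (3.2%) for ZnF4 against wild type and 28 (0.271%) for ZnF1 against wild type. The lean towards ZnF4 was thus not particular to these genes. By direction, the mutants differed for 17 of the 28 higher and 4 of the 22 lower genes (Lrrc32, Dtx1, Leprotl1 and Bhlhe40). Nrp2, a semaphorin receptor gene, was at 0.1 and 0.1 RPKM in wild type, 0.1 and 0.3 in the ZnF1 libraries and 9.3 and 8.3 in the ZnF4 libraries. Its ZnF1 libraries touched wild type, and the called mean came from the ZnF4 libraries. Apba1 was at 0.3 and 0.4 RPKM in wild type, 0.4 and 1.0 in the ZnF1 libraries and 12.1 and 9.4 in the ZnF4 libraries, and Ptms was at 10.8 and 10.4, 11.7 and 11.5, and 36.8 and 51.1.

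Other genes differed between the mutants and yet lay above wild type in all 4 mutant libraries. Ctnnd1, the p120 catenin gene, was at 1.0 and 1.1 RPKM in wild type, 2.6 and 3.4 in the ZnF1 libraries and 22.5 and 25.2 in the ZnF4 libraries. Cyp27a1, a sterol hydroxylase gene, was at 12.1 and 9.4 RPKM in wild type, 26.9 and 23.6 in the ZnF1 libraries and 74.1 and 74.4 in the ZnF4 libraries. Igll1, a surrogate light chain gene, was at 5.7 and 13.7 RPKM in wild type, 18.5 and 28.6 in the ZnF1 libraries and 130.4 and 121.3 in the ZnF4 libraries. In each of these the ZnF4 libraries were the highest and the ZnF1 libraries lay between them and wild type. The ZnF1 minus wild-type log2 difference was 1.20 for Cyp27a1 (SE 0.15, adjusted p = 0.0347 by limma), 1.17 for Ctnnd1 (adjusted p = 0.0687) and 1.33 for Igll1 (adjusted p = 0.227). The remaining members of this group were Cd36, Cd300c, Gpr34, Cd209a, Cyp4f16, Dock9, Inpp4a, Kynu, Gna15 and 9030617O03Rik.

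**Figure D3:**
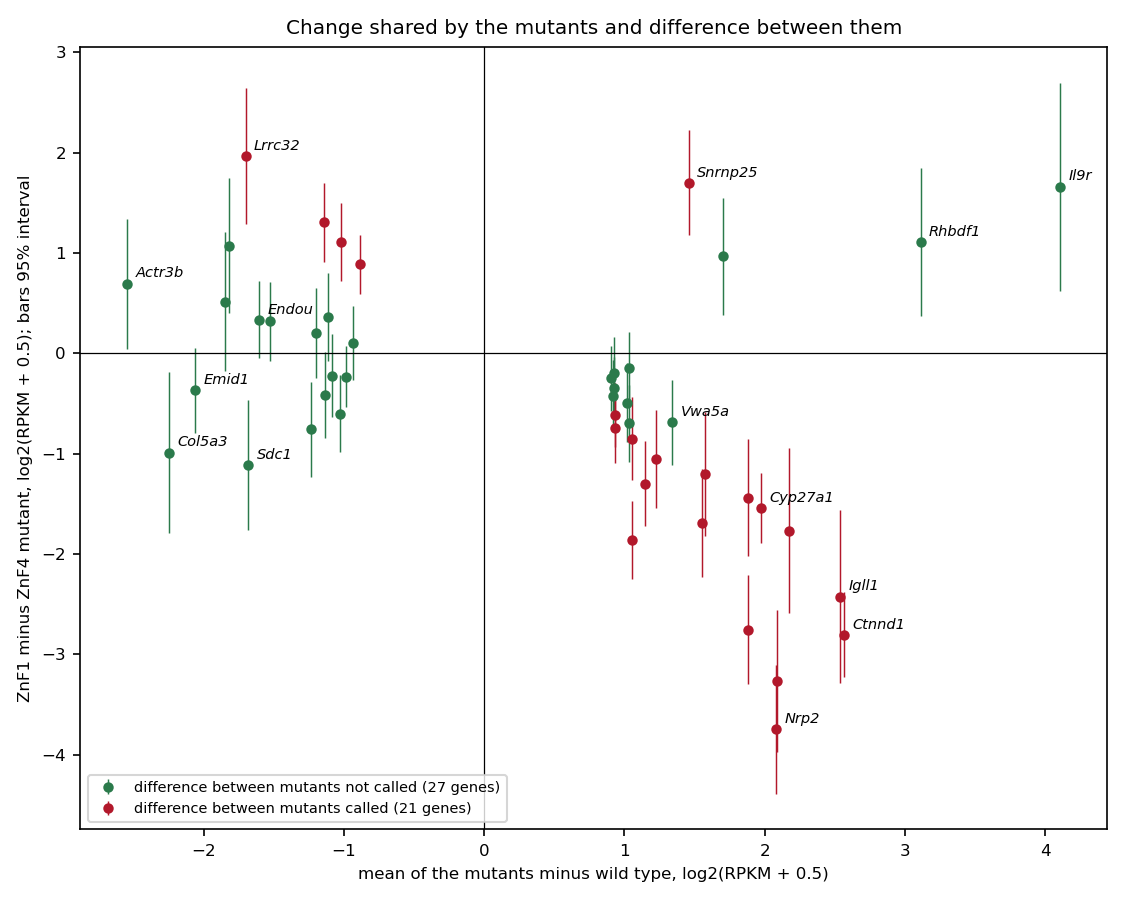
For 48 of the 50 called genes, the x axis is the mean of the mutants minus wild type and the y axis is the ZnF1 minus ZnF4 difference, both in log2(RPKM + 0.5), with bars for the 95% interval of the difference (not adjusted for the number of genes). The 21 red genes were called in the direct comparison and reach -3.74 for Nrp2, while the 27 green genes shown were not called in it and include Emid1 at -0.37 and Actr3b at 0.69.

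A description by separation of the arms needs no test. With 4 libraries against 2, some genes separate by chance alone, and that share was not estimated. In all, 918 genes (8.89%) had all 4 mutant libraries above both wild-type libraries and 925 (8.96%) had all 4 below. The arms were at least 1 log2 unit apart, from the nearest mutant to the nearest wild-type library, for 10 higher genes (0.0969%) and 7 lower genes (0.0678%). The lower genes included Actr3b (a gap of 1.93), Emid1 (1.61), Hmgcll1 (1.38), Endou (1.23), Ets2 (1.23) and Col5a3 (1.01). All 7 lower genes are among the called genes. Of the 10 higher genes only Il9r (2.14) and Rhbdf1 (1.82) are, and the other 8 are genes of granulocytes and related myeloid cells: Mcpt8 (1.86) and Prss34 (1.55), which encode basophil proteases, Chi3l3 (1.32), Prtn3 (1.31), S100a9 (1.22), S100a8 (1.15), Fpr2 (1.08) and Lcn2 (1.05).

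S100a8 was at 118.8 and 187.7 RPKM in wild type, 416.2 and 1808.1 in the ZnF1 libraries and 524.5 and 427.8 in the ZnF4 libraries. Mcpt8 was at 0.8 and 1.1, 5.3 and 37.3, and 5.7 and 9.5 RPKM in the same order. For both, ZnF1 replicate 2 was far above the other mutant libraries, and all 4 were above wild type. Of the 21 tested granulocyte and monocyte markers, 21 had a positive pooled log2 fold change. For 18 (85.7%) all 4 mutant libraries lay above wild type, against 8.89% of all tested genes. By limma, 0 of the 21 passed and 14 had an unadjusted p under 0.05. The list median was 1.95, against -0.01 over all tested genes, and it was 1.40 without ZnF1 replicate 2. With a term for the level of these markers, the pooled log2 fold change was 3.17 for Il9r, -1.70 for Emid1, -1.54 for Endou, -1.71 for Ets2 and -2.55 for Actr3b, and that of S100a8 went from 2.10 to 0.39. Of the 50 called genes, 4 had a value smaller by over 1.5 times with that term, namely Snrnp25 (1.46 to 0.60), Bmf (-1.24 to -0.63), Sdc1 (-1.68 to -0.95) and Serpina3g (1.70 to 1.08). It was larger by over 1.5 times for 7, namely Nrp2, Apba1, Cd36, Cyp4f16, Gpr34, Kynu and Ptms.

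In each of the other marker lists, at most 2 members lay on the same side of wild type in all 4 mutant libraries. The shares over all tested genes were 8.89% above and 8.96% below. The 6 B cell markers had a median of -0.15, with 2 members (Cd79b and Blnk) below wild type in all 4 mutant libraries, and the list medians of the mutant libraries (-0.11, -0.27, -0.18 and -0.03) all lay below those of wild type. Of 11 erythroid and megakaryocyte markers, 11 had a positive value with a median of 0.95, but only 1 was above wild type in all 4 mutant libraries and the median was 0.33 without ZnF1 replicate 2. The 6 T cell markers had a median of 0.13, with Lck below wild type in all 4 mutant libraries and Cd4 above (0.6 and 0.9 RPKM against 4.2, 4.5, 1.1 and 1.4). The 7 NK and plasmacytoid dendritic cell markers had medians of 0.71 in the ZnF1 and -0.72 in the ZnF4 libraries, which share the same controls. The 12 plasma cell markers had a median of -0.29, and it was 0.01 without wild-type replicate 1, the library richest in them. No marker of these lists passed in the pooled fit, and Sdc1 was the only one called with 1 coefficient per genotype.

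**Figure D4:**
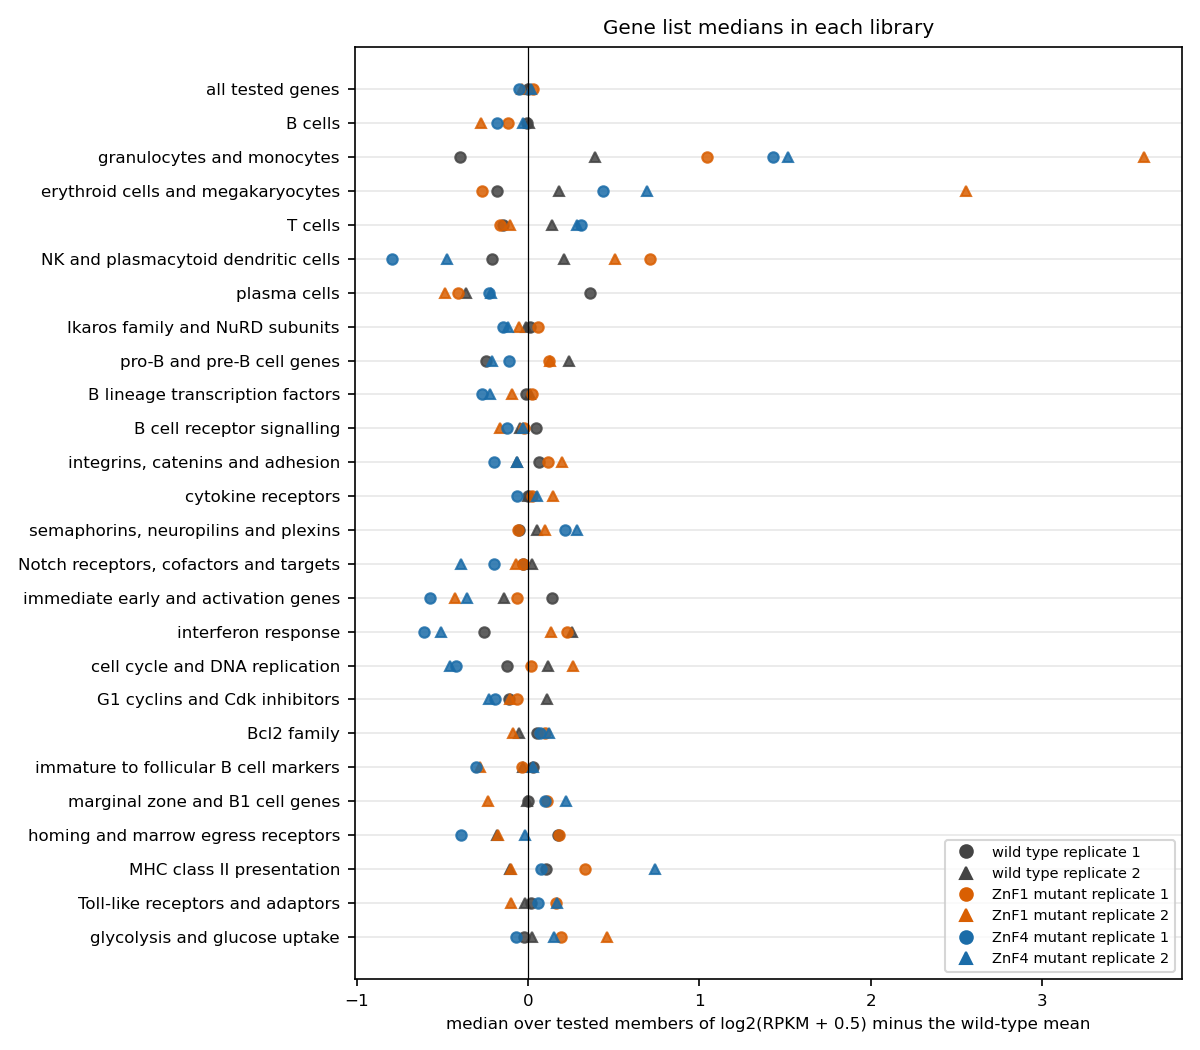
Each row is a gene list and each point a library, placed at the median over the tested members of log2(RPKM + 0.5) minus the wild-type mean of the gene. Granulocyte and monocyte markers lie at 1.04, 3.60, 1.43 and 1.52 in the mutant libraries against -0.39 and 0.39 in wild type, and the cell cycle list lies at 0.02 and 0.26 in the ZnF1 and at -0.42 and -0.46 in the ZnF4 libraries.

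Immediate early and activation genes, which respond within minutes to receptor signals, had the lowest median of the pathway lists. Of 27 tested members, 4 had a positive value, 8 (29.6%) lay below wild type in all 4 mutant libraries against 8.96% of all tested genes, 0 passed by limma and the median was -0.46. Egr1, an early transcription factor gene of antigen receptor signals, was at 33.5 and 38.5 RPKM in wild type, 21.5 and 18.8 in the ZnF1 libraries and 22.9 and 20.2 in the ZnF4 libraries (-0.77, SE 0.12, adjusted p = 0.234). Dusp5, a phosphatase gene that restrains ERK kinases, was at 16.5 and 21.8 RPKM in wild type, 11.5 and 8.1 in the ZnF1 libraries and 8.2 and 7.1 in the ZnF4 libraries (-1.10, SE 0.21, adjusted p = 0.370). Dusp10, Fosb, Nr4a1, Jund, Dusp6 and Dusp2 were the other 6 members below wild type in every mutant library, and Ier3 and Fosl2 lay above it. The list median was -0.08 without wild-type replicate 1 and -0.17 with the term for granulocyte and monocyte markers.

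Transcription factors of the B lineage were low more often than high. Of 30 tested members, 9 (30%) had all 4 mutant libraries below wild type and 2 had all 4 above, against 8.96% and 8.89% of all tested genes, and 0 passed in the pooled fit. The median was -0.14, with -0.01 for ZnF1 and -0.26 for ZnF4. Apart from called genes and those with the smallest p-values, the list members named with values here were chosen after their values were seen. Bach2, a repressor that delays plasma cell fate, was at 68.9 and 71.4 RPKM in wild type, 51.0 and 42.7 in the ZnF1 libraries and 53.6 and 41.9 in the ZnF4 libraries (unadjusted p = 0.003). Ebf1, a factor that specifies B cells, was at 93.9 and 108.3 RPKM, 73.4 and 59.7, and 70.7 and 78.7 in the same order. Pax5, which maintains B cell identity, was at 296.9 and 441.7 RPKM, 235.0 and 194.1, and 252.3 and 293.0. Nfkb2, a gene of the noncanonical NF-kB pathway, lay on the other side, at 76.8 and 95.3 RPKM in wild type, 150.7 and 152.8 in the ZnF1 libraries and 121.5 and 136.0 in the ZnF4 libraries (0.70, SE 0.15, adjusted p = 0.382).

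Of 21 markers of the passage from immature to follicular B cells, 7 (33.3%) lay below and 2 (9.52%) above wild type in all 4 mutant libraries, against 8.96% and 8.89% of all tested genes. Beside Cd24a and Bst1, the lower ones included Cd93, a receptor gene of immature B cells, at 41.5 and 42.4 RPKM in wild type, 20.7 and 22.6 in the ZnF1 libraries and 33.9 and 22.1 in the ZnF4 libraries. Tnfrsf13c, the gene of the BAFF receptor, was at 418.2 and 433.7 RPKM in wild type, 336.2 and 286.5 in the ZnF1 libraries and 243.1 and 236.4 in the ZnF4 libraries. The 2 higher ones were the costimulatory receptor gene Cd40, at 75.0 and 89.5 RPKM in wild type and between 96.0 and 123.8 in the mutants, and the complement receptor gene Cr2, at 24.7 and 23.1 RPKM in wild type and between 25.2 and 44.1 in the mutants. The list median was -0.14, with 8 of the 21 members positive.

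Of 18 Notch pathway genes, 7 (38.9%) lay below wild type in all 4 mutant libraries and 0 above, against 8.96% and 8.89% of all tested genes. The median was -0.23, with -0.00044 for ZnF1 and -0.26 for ZnF4. Gfi1, a repressor gene, had the smallest p-value of the list, at 7.1 and 7.4 RPKM in wild type, 3.8 and 4.9 in the ZnF1 libraries and 4.8 and 4.1 in the ZnF4 libraries (-0.67, SE 0.15, adjusted p = 0.405). Adam10, the protease gene that cleaves Notch receptors, was at 58.7 and 54.8 RPKM in wild type and between 36.5 and 48.0 in the mutants. Without wild-type replicate 1 the list median was -0.07.

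B cell receptor signalling genes had a median of -0.13 over 29 members, with 6 (20.7%) below and 2 (6.90%) above wild type in all 4 mutant libraries, against 8.96% and 8.89% of all tested genes. The kinase gene Blk was at 211.3 and 226.9 RPKM in wild type and between 149.6 and 173.3 in the mutants (-0.45, SE 0.12, adjusted p = 0.462). Cytokine receptor genes and their kinases had a median of 0.07 over 34 members, with 5 (14.7%) above and 4 (11.8%) below. Beside Il9r and Il2ra, the kinase gene Jak3 was at 14.4 and 13.1 RPKM in wild type and 26.5, 27.1, 18.4 and 26.0 in the mutant libraries (0.80, SE 0.17, adjusted p = 0.405). MHC class II presentation genes had 4 of 12 members (33.3%) above wild type in all 4 mutant libraries, against 8.89% of all tested genes, and 0 below. Their median of 0.24 ranged from 0.0702 to 0.38 with 1 library left out. They included H2-DMb1, a peptide exchange factor gene, at 41.9 and 32.0 RPKM in wild type and between 42.9 and 59.2 in the mutants, and Ctss, a lysosomal protease gene, at 329.0 and 268.6 RPKM and between 359.7 and 517.1.

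The medians of the mutants had opposite signs in 11 of the 25 lists. The 34 interferon response genes had a median of -0.25, with 0.17 in the ZnF1 and -0.53 in the ZnF4 libraries, and 0 members lay on 1 side of wild type in all 4 mutant libraries. The 35 cell cycle and DNA replication genes had a median of -0.14, with 0.13 and -0.51 in the same order, and again 0 members separated. In the pro-B and pre-B list, 2 of 14 members (14.3%) lay above wild type in all 4 mutant libraries, Igll1 and Vpreb1. Another 3 (21.4%) lay below, Sox4, Rag1 and Vpreb3. Over all tested genes the shares were 8.89% above and 8.96% below. The list median was -0.21 (0.15 for ZnF1 and -0.20 for ZnF4). Integrin, catenin and adhesion genes had 0.21 and -0.11, and homing receptors 0.06 and -0.26. The difference between the mutants was not tested for these lists.

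The other pathway lists had pooled medians between -0.08 and 0.17. The Ikaros family and NuRD subunits, the repressor complex that Ikaros binds, had a median of -0.06 over 19 members, with 1 below wild type in all 4 mutant libraries (Gatad2b) and 0 above. Medians were 0.03 for 27 integrin, catenin and adhesion genes, 0.06 for 12 Bcl2 family genes (2 above and 2 below in all 4 mutant libraries), 0.05 for 19 marginal zone and B1 cell genes (2 above and 4 below), 0.01 for 17 Toll-like receptor genes and -0.08 for 11 G1 cyclins and Cdk inhibitors. They were -0.07 for 16 homing receptors, 0.11 for 12 semaphorin, neuropilin and plexin genes (2 above and 2 below) and 0.17 for 17 glycolysis genes. Over all tested genes, 8.89% lay above and 8.96% below wild type in all 4 mutant libraries. Beside the called Tlr2 and Bmf, members of these lists with small p-values were S1pr3, a sphingosine phosphate receptor gene (-0.94), Ptger4, a prostaglandin receptor gene (-0.80), Bcl2l1, which encodes the survival protein Bcl-xL (-0.73), Sema4a (2.19) and Itgb3, an integrin gene (0.48), with adjusted p between 0.405 and 0.608 by limma. The value of Itgb3 was 0.22 without wild-type replicate 1 and 0.73 with that library as the only wild type.

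Several genes had small p-values in the pooled fit although neither fit called them. Serpinf1 was at 1.0 and 1.5 RPKM in wild type and between 3.2 and 5.5 in the mutants (1.54, SE 0.25, adjusted p = 0.250). Ehd3, a membrane trafficking gene, was at 3.1 and 3.4 RPKM in wild type and between 6.6 and 10.8 in the mutants (1.28, SE 0.20, adjusted p = 0.234). Traf1, an adaptor gene of TNF receptors and a target of NF-kB, was at 4.6 and 3.6 RPKM in wild type and 9.7, 8.8, 8.8 and 15.6 in the mutant libraries (1.26, SE 0.25, adjusted p = 0.382). Arvcf, a catenin gene of the p120 family, was at 6.4 and 8.5 RPKM in wild type and between 2.8 and 3.6 in the mutants (-1.08, SE 0.18, adjusted p = 0.250). For each of these, all 4 mutant libraries lay on the same side of both wild-type libraries.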

How the data were processed

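The authors deposited RPKM values for 26531 RefSeq transcripts in 6 libraries, rounded to steps of 0.1. TopHat, bedtools and the assembly mm9 are named in the submitters' processing notes, without versions or roles, and which reads form the total is not given in the sources used here. For transcripts shorter than 150 bases, at most 28.4% of values fell within 0.1 of a whole read at the best read total, so the depth is unknown and no counting interval is given. The deposited transcript with the highest mean stood for its gene name, and genes with a mean of at least 1 RPKM were tested on the log2(RPKM + 0.5) scale. Fold changes of low genes are therefore understated.

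The pooled fit was limma 3.58.1 in R 4.3.3 (lmFit, eBayes with trend, two-sided) with the mutants as 1 group, and p-values were adjusted over 10322 genes by Benjamini-Hochberg. Genes with an adjusted p below 0.05 count as called. The fit with 1 coefficient per genotype was listed as a second model for these data and leaves 3 residual degrees of freedom. The fits were also run on simulated data in which some genes changed alike in all 4 mutant libraries. That run held no difference between the mutants and no outlying library, and its outcome is not used here. The planned rule for named genes took called genes, members of lists with the smallest p and check genes. As the pooled fit called none, the text also names the genes of the other fit, the 40 smallest p-values and the genes with a gap of at least 1, a choice made after seeing the data. The comparison and its 25 lists (545 entries, 539 in the table) were chosen with earlier results of these data known. Promoters come from RefSeq (GRCm38.p6), which was used for nothing else but gene order. Results for a few genes are not reported here.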

Additional observations from a re-analysis of the deposited data

Results flagged for a closer look

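Among the 4 mutant libraries, 1 library stood far from the others for 6 of the 114 named genes, measured as its gap to the nearest library over the whole range, where chance alone picks about 1 in 20 groups. ZnF1 replicate 2 was far above the others for the granulocyte genes S100a8 (0.843) and Prtn3 (0.895). ZnF4 replicate 2 was far above for Traf1 (0.832). The lowest library was ZnF4 replicate 1 for Jak3 (0.893) and H2-DMb1 (0.871), and ZnF1 replicate 1 for Bcl2l1 (0.954).

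In the direct comparison by limma (adjusted p under 0.05), 23 named genes differed between the mutants. The ZnF1 minus ZnF4 differences in log2(RPKM + 0.5) were negative for Nrp2 (-3.74), Apba1 (-3.26), Ctnnd1 (-2.81), Cyp4f16 (-2.75), Igll1 (-2.42), Ptms (-1.86), Cd300c (-1.77), Cd36 (-1.69), Cyp27a1 (-1.54), Gpr34 (-1.44), Dock9 (-1.3), Cd209a (-1.2), 9030617O03Rik (-1.05), Inpp4a (-0.85), Kynu (-0.74) and Gna15 (-0.61). All of these were higher genes, with their highest values in the ZnF4 mutant. Positive differences were those of Lrrc32 (1.97), Snrnp25 (1.7), Cd4 (1.48), Dtx1 (1.31), Leprotl1 (1.11), Bhlhe40 (0.89) and Ccnd3 (0.86).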

How the results depend on the processing

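The pooled count of 0 became 50 with 1 coefficient per genotype and 2 with library weights (both lower), and it was 0 under every other alternative run, each left-out library and the replicate block included. Without the filter on low values the count of 50 was 0, without replicate 2 of both mutants 0, with a term for Y-linked RNA 4 and with a term for granulocyte and monocyte markers 10. With 1 library left out it ranged from 0 to 546. With a replicate block it was 49, 37 of them shared. Deviations of same-numbered libraries correlated at 0.28 (wild type and ZnF1), -0.03 (wild type and ZnF4) and 0.21 (ZnF1 and ZnF4). These values do not settle whether the replicate numbers pair the libraries. The 918 and 925 separated genes ranged over 1096 to 1959 and 1081 to 1962 with 1 library left out, and were 1619 and 1706 without replicate 2 of both mutants, where fewer libraries must separate.

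With the term for granulocyte and monocyte markers, list medians moved to -0.0463 for B cells, -0.13 for granulocytes and monocytes, -1.20 for erythroid cells, -0.80 for NK and plasmacytoid dendritic cells, 0.015 for plasma cells, 0.0197 for B cell receptor signalling, -0.17 for immediate early genes, -0.73 for the cell cycle, -0.24 for G1 cyclins, 0.17 for the Bcl2 family, 0.0693 for immature to follicular markers, 0.23 for marginal zone and B1 genes, 0.62 for MHC class II and -0.27 for glycolysis. With 1 library left out, medians ranged from -0.75 to 0.0139 for plasma cells, -0.0307 to 0.15 for cytokine receptors, -0.0655 to 0.23 for semaphorins, -0.31 to -0.0658 for Notch, -0.56 to -0.0841 for immediate early genes, -0.21 to 0.0297 for G1 cyclins and -0.0074 to 0.17 for the Bcl2 family. The sign turned for Xist (0.20 without replicate 2 of both mutants and with the Y-linked term, 1.35 with the granulocyte term), Ddx3y (-1.08 with the latter) and Hbb-b1 (-0.0308 without ZnF1 replicate 2 in a range up to 0.79 with 1 library left out, -0.34 without replicate 2 of both mutants and with the Y-linked term, -1.23 with the granulocyte term). With the granulocyte term it also turned for Gata1 (-0.64), Nkg7 (-0.90), Cdkn1b (0.0237), Hk3 (-0.34) and Hk2 (-0.11). The cause was not tested. The granulocyte term is the median of the granulocyte and monocyte markers, so the fall of that list's own median was built in. Depth is unknown, and the number of libraries limits the precision.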
